A study of Mus musculus with 26 samples.

Results

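Described here are mice that had taken cocaine by long-access intravenous self-administration and then gone through withdrawal. They are compared with mice that had taken saline and gone through withdrawal. Both groups come from the set with the higher library numbers, of 2 sets that follow runs of library numbers. Members were chosen by library number: libraries 1839 to 1843 (cocaine, nonescalating group, withdrawal, n = 5) and libraries 1836 to 1838 (saline, withdrawal, n = 3), which are called library set 2. They are 8 of the 26 libraries of the series, of which 24 hold immunopurified RNA and 2 hold total input RNA. Nonescalating is the submitters' name for a cocaine group, set apart from an escalating group that is not part of this comparison. All 8 libraries come from the accumbens nucleus of adult Drd2-TRAP mice of line CP101, on an FVB/N-Swiss Webster background crossed to C57BL/6 for at least 9 generations. The cocaine dose, the length of withdrawal, the sex of the mice and the number of animals per library were not given in the labels. A replicate is therefore a library, and the p-values below speak only of the spread between libraries, which may be technical.

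Drd2-TRAP mice carry a transgene in which the Drd2 promoter drives ribosomal protein L10a fused to EGFP, so that an antibody against EGFP pulls down their ribosomes with the RNA being translated. In the accumbens the Drd2 gene is used mainly by the medium spiny projection neurons of the indirect pathway, which carry dopamine D2 receptors and release the opioid peptide enkephalin, and also by cholinergic interneurons. Cocaine blocks the dopamine transporter and raises extracellular dopamine, which acts on these neurons through a receptor that inhibits adenylyl cyclase. The pull-down is a strong but not complete enrichment, and RNA of untagged cells can be carried along. All libraries are of bulk RNA, in which fewer cells of a type and less RNA per cell cannot be told apart.

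No gene differed between cocaine withdrawal and saline withdrawal by the main test. Of 12076 genes tested with edgeR's quasi-likelihood test, 0 (0%) had a Benjamini-Hochberg adjusted p under 0.05, and the smallest adjusted p was 0.844. At an unadjusted p under 0.05 there were 663 genes (5.49%), of which 502 (4.16%) were higher and 161 (1.33%) lower in the cocaine libraries. The median log2 fold change of all genes was 0.05. Every cocaine library lay above every saline library in 260 genes (2.15%) and below every saline library in 223 genes (1.85%). DESeq2 called 45 of 11495 genes (0.391%), 43 of them higher and 2 lower, and of these 18 have predicted or cDNA-accession symbols. limma voom with sample quality weights called 2 genes, Malat1 and Snhg11. The values below are therefore descriptions of these 8 libraries, and no gene in them passed the main test; lists were not tested as such. A fold change is cocaine withdrawal over saline withdrawal on the log2 scale, with its standard error (SE), and levels are counts per 1e6 counts in genes (CPM) with TMM factors, given in the order of the replicate numbers. Levels of the input libraries are CPM without TMM factors.

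Counts in genes were 2.71, 3.01, 2.11, 2.68 and 1.54 M in the cocaine libraries, against 3.42, 1.81 and 2.95 M in the saline libraries (M for 1e6 counts). At this depth 3 counts correspond to 0.878 to 1.95 CPM. The share of records that fell in no annotated feature was 44.2, 50.3, 37.1, 39.1 and 44.1% in the cocaine libraries, against 31.0, 40.6 and 32.3% in the saline libraries. Its mean was 43.0% ± 5.17 (SD, n = 5) in cocaine and 34.6% ± 5.22 (SD, n = 3) in saline libraries, and a two-sided exact permutation test over the 56 splits gave p = 0.0714 (adjusted over 6 library values, 0.214). Such a test of 5 against 3 libraries cannot go below 0.0179. Cocaine replicate 5 stood apart from the rest: it had the lowest depth, 13.7% of its records in genes, and a median Pearson r of log2 CPM with the other 7 libraries of 0.696, against 0.774 to 0.819 in the other libraries. Several values below are also given without it.

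**Figure D1:**
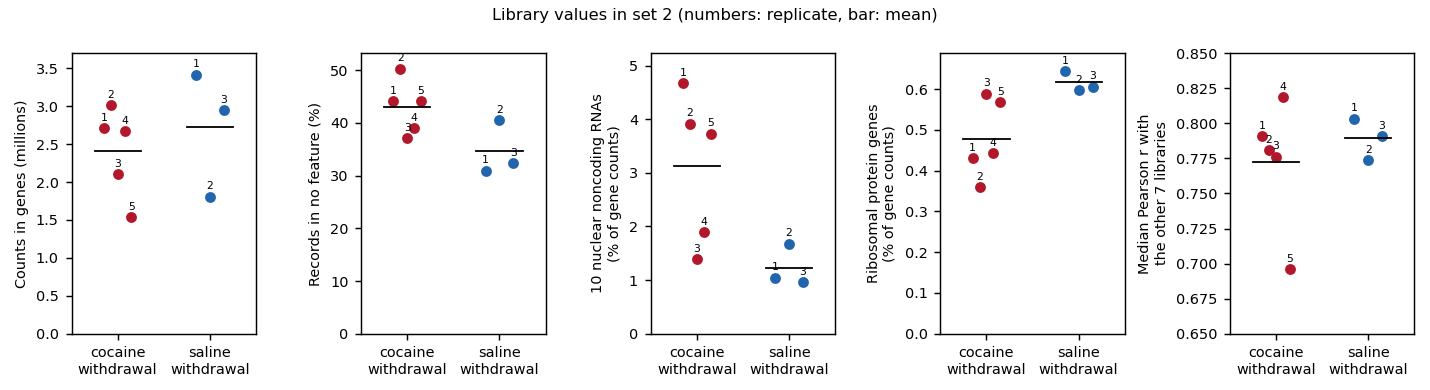
Each panel plots 1 value per library, with the 5 cocaine withdrawal libraries left and the 3 saline withdrawal libraries right; digits are replicate numbers and bars are group means. The first 4 axes start at 0, and the correlation axis runs from 0.65 to 0.85. Cocaine replicate 5 lies lowest in depth and in correlation, at 1.54 M counts and 0.696, and cocaine replicates 1, 2 and 5 have the highest shares of the 10 nuclear noncoding RNAs.

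The label of the tagged cells was checked against their markers. Drd2, on chromosome 9 (49340627 to 49408177, plus strand, mm10), had 1157, 1642, 1796, 2926 and 2102 CPM in the cocaine libraries, against 2319.7, 2495 and 2132 CPM in the saline libraries. The 2 input libraries, which belong to library set 1 and to mice without withdrawal, had 381 CPM (nonescalating cocaine) and 299 CPM (saline), so all 8 pull-downs held more Drd2 RNA than either input. Input levels carry no TMM factors, unlike those of the pull-downs, so values that lie close to an input cannot be ranked against it with certainty. Penk, which encodes the enkephalin precursor, had 2529, 3613, 4105, 4327 and 3240.0 CPM in the cocaine libraries, against 5183, 2293 and 4977 CPM in the saline libraries, with 884 and 770.0 CPM in the nonescalating and saline inputs. Drd1, the dopamine D1 receptor of the other class of medium spiny neurons, had 117, 40.7, 5.93, 36.6 and 41.3 CPM in the cocaine libraries, against 26.6, 46.0 and 21.6 CPM in the saline libraries, with 138 and 142 CPM in the nonescalating and saline inputs. All 8 libraries were below both inputs in Drd1, with cocaine replicate 1 the closest. Tac1, the substance P precursor gene of the same D1 class, ran from 0 to 29.5 CPM in cocaine and from 14.6 to 33.7 CPM in saline libraries, also below the 65.5 CPM of the nonescalating and 99.8 CPM of the saline input. Chat, which marks cholinergic interneurons and which the transgene could tag, ran from 0 to 28.3 CPM in cocaine and from 1.74 to 45.5 CPM in saline libraries. Its inputs were at 19.0 CPM (nonescalating) and 10.5 CPM (saline), and only cocaine replicate 2 and saline replicate 2 were above both. Not every D2 neuron marker was above both inputs in every library. Gpr6, an orphan receptor gene of D2 neurons, had 8.58 CPM in cocaine replicate 5, below the 24.5 CPM of the nonescalating and 16.95 CPM of the saline input. Adora2a, another D2 neuron gene, had 191 CPM in that library, between the 198 CPM of the nonescalating and 123 CPM of the saline input. Vascular markers were mixed against the inputs, with Myh11 above both in all 8 libraries and others not. Rgs5, a mural gene, ran from 85.1 to 223 CPM in cocaine and from 44.9 to 291 CPM in saline libraries. Its inputs, at 87.4 CPM (nonescalating) and 121 CPM (saline), lay within those ranges. The endothelial gene Pecam1 had 9.07 and 9.36 CPM in cocaine replicates 4 and 5, below the 14.2 CPM of the nonescalating and 13.5 CPM of the saline input. Myh11, the smooth muscle myosin gene, ran from 4.91 to 158 CPM in cocaine and from 35.6 to 59.0 CPM in saline libraries, with 0.134 CPM in the nonescalating and 0 CPM in the saline input. Flt1, an endothelial receptor gene, ran from 159.7 to 471 CPM in cocaine and from 125 to 324 CPM in saline libraries, and all but saline replicates 1 and 3 were above both inputs, at 41.5 CPM (nonescalating) and 144 CPM (saline). The microglial markers Cx3cr1 and P2ry12 were at or under 10.9 CPM in all 8 libraries. That highest value, of P2ry12 in cocaine replicate 5, was above the 4.35 CPM of the nonescalating and 4.72 CPM of the saline input. The interneuron marker Pvalb had no count in any of the 8.

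**Figure D2:**
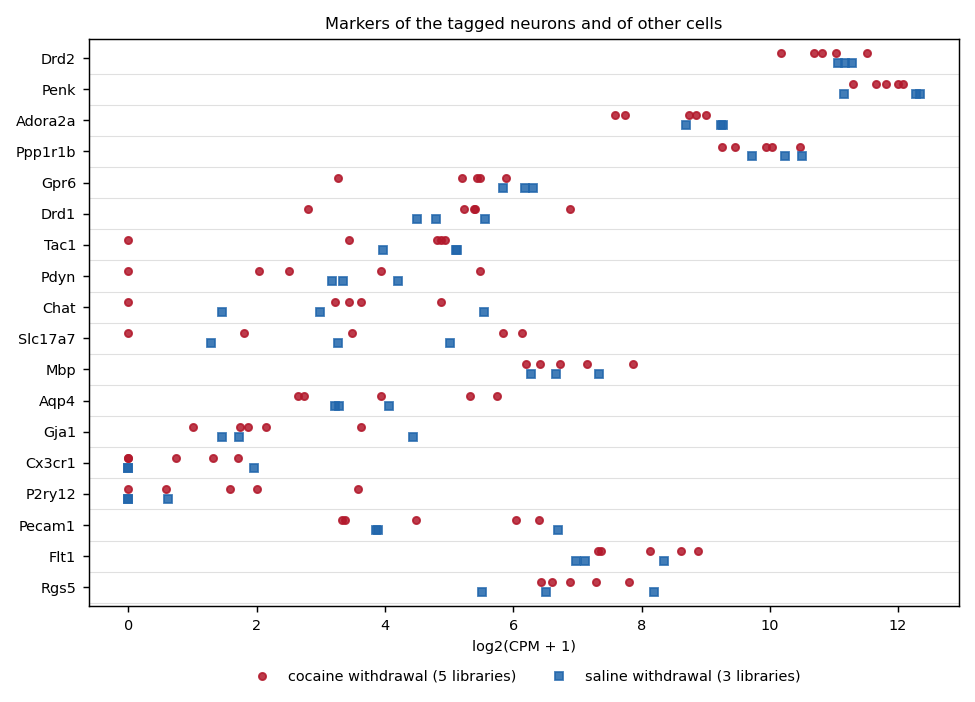
The horizontal axis is log2(CPM + 1), and each row is 1 marker gene with the 5 cocaine withdrawal libraries as circles above the 3 saline withdrawal libraries as squares. Drd2 and Penk lie at the right in all 8 libraries, and the 2 groups overlap in every row of the first 4 markers.

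Most genes that mark the tagged neurons had negative fold changes, and none passed the test. Of the 11 D2 neuron genes, 3 were higher and 8 lower, with a median log2 fold change of -0.36, against 0.05 for all genes. Of the 11, 1 had an unadjusted p under 0.05, against 5.49% of all genes in either direction. The median of the list was -0.10 with the share of records in no feature as a covariate (the no-feature covariate) and -0.23 without cocaine replicate 5. Drd2 itself averaged 1925 CPM ± 656 (SD, n = 5) in cocaine and 2316 ± 181 CPM (SD, n = 3) in saline libraries (log2 fold change -0.27, SE 0.26, adjusted p = 0.977). The group ranges overlapped, since cocaine replicate 4 was above all saline libraries. Adora2a, the adenosine receptor gene whose product opposes D2 receptor signalling in these neurons, had 214, 459, 511, 427 and 191 CPM in the cocaine libraries, against 603, 413 and 614 CPM in the saline libraries (log2 fold change -0.59, SE 0.33, adjusted p = 0.926). Gpr6 had 58.2, 42.3, 43.5, 35.9 and 8.58 CPM in the cocaine libraries, against 71.8, 77.9 and 56 CPM in the saline libraries (log2 fold change -0.85, SE 0.53, adjusted p = 0.934). Penk levels overlapped fully, because saline replicate 2 was below every cocaine library (log2 fold change -0.22, SE 0.27, adjusted p = 0.984). The gene with the smallest p in the list was Ttc12, which lies next to Drd2 on chromosome 9 (49436963 to 49486225, minus strand). It had 185, 249, 100.4, 249 and 139 CPM in the cocaine libraries, against 324, 310.0 and 334 CPM in the saline libraries, with no overlap of the groups (log2 fold change -0.81, SE 0.31, adjusted p = 0.863).

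Among 18 genes shared by both classes of medium spiny neuron, 4 were higher and 14 lower in cocaine libraries (median -0.26). With the no-feature covariate that median was -0.01, and with the mean log2 CPM of non-neuronal markers as a covariate it was -0.14. Adcy5, the main adenylyl cyclase of the striatum and the target of D1 and D2 receptor signalling, had 220.1, 343, 327, 321 and 251 CPM in the cocaine libraries, against 449, 386 and 418 CPM in the saline libraries. No cocaine library reached the lowest saline library, yet the test did not pass (log2 fold change -0.51, SE 0.26, adjusted p = 0.915). Pde10a, the phosphodiesterase that breaks down cyclic nucleotides in these neurons, averaged 2009.9 CPM ± 485 (SD, n = 5) in cocaine and 2746 ± 299 CPM (SD, n = 3) in saline libraries (log2 fold change -0.45, SE 0.23, adjusted p = 0.926). The summed level of the 18 genes ran from 10746 to 16682 CPM in cocaine and from 15588 to 17656 CPM in saline libraries. In the 9 tested D1 neuron genes 7 were higher and 2 lower (median 0.25), with Drd1 at a log2 fold change of 0.63 and Tac1 at -0.52. The median of the D1 list turned to -0.39 with the no-feature covariate and was 0.46 without cocaine replicate 5. The sign of the Drd1 value turned when cocaine replicate 1 was left out (-0.02), and Tac1 was at -0.25 without cocaine replicate 5. In the 18 tested genes of dopamine receptor signalling 4 were higher and 14 lower (median -0.23, or -0.02 with the no-feature covariate).

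Of the 36 gene lists with at least 3 tested genes, the one with the highest median was that of long noncoding RNAs that stay largely in the nucleus. All 10 RNAs of this list (Malat1, Neat1, Meg3, Rian, Mirg, Snhg11, Miat, Kcnq1ot1, Snhg14 and Pvt1) were higher in cocaine libraries, with log2 fold changes of 0.98 to 2.64 and a median of 1.47. Of them 7 had an unadjusted p under 0.05, against 4.16% of all genes in that direction, and 0 passed after adjustment. Together they made up 4.67, 3.92, 1.39, 1.90 and 3.73% of gene counts in the cocaine libraries, against 1.05, 1.68 and 0.961% in the saline libraries. Cocaine replicates 1, 2, 4 and 5 were above all saline libraries, and cocaine replicate 3 was below saline replicate 2.

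Snhg11, a neuronal small nucleolar RNA host gene on chromosome 2 (158375638 to 158386145, plus strand), had 5041, 1838, 1369, 919 and 2329.5 CPM in the cocaine libraries, against 355, 898 and 419.6 CPM in the saline libraries. The groups did not overlap, by a small margin between cocaine replicate 4 and saline replicate 2 (log2 fold change 2.05, SE 0.49, adjusted p = 0.844). Malat1, a nuclear RNA of splicing speckles on chromosome 19 (5795690 to 5802672, minus strand), had 22664, 27485, 9610.1, 15456 and 35957 CPM in the cocaine libraries, against 8429, 12399 and 7534 CPM in the saline libraries. It averaged 22234 CPM ± 10264 (SD, n = 5) in cocaine and 9454 ± 2589 CPM (SD, n = 3) in saline libraries, with cocaine replicate 3 inside the saline range (log2 fold change 1.23, SE 0.34, adjusted p = 0.844). An exact two-sided permutation test of the Malat1 level alone gave p = 0.0714, or 0.214 adjusted over the 6 library values. Meg3, the maternally expressed RNA of the imprinted Dlk1 locus on chromosome 12 (109541001 to 109571726, plus strand), had 13051, 6424, 3111, 2179 and 5474 CPM in the cocaine libraries, against 1335, 2637 and 1631 CPM in the saline libraries (log2 fold change 1.70, SE 0.48, adjusted p = 0.844). Miat, a nuclear RNA expressed in neurons, had 775, 133, 58.4, 68.0 and 75.7 CPM in the cocaine libraries, against 25.8, 48.7 and 51.1 CPM in the saline libraries, with 1 library far above the others (log2 fold change 2.41, SE 0.82, adjusted p = 0.856).

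By limma voom with quality weights, Malat1 (log2 fold change 1.14) and Snhg11 (2.07) each had an adjusted p of 0.0386. DESeq2 called Snhg11 (adjusted p = 0.0127) and Meg3 (adjusted p = 0.0445) but not Malat1 (adjusted p = 0.112). Over the 18 alternatives the highest adjusted p was 1 for each of these 3 RNAs, and the log2 fold change ran from 0.36 to 1.47 for Malat1, from 1.18 to 2.56 for Snhg11 and from 0.67 to 2.01 for Meg3. The share of records in no feature, given above, moved with this list: it was highest in cocaine replicates 2, 1 and 5 and, among saline libraries, in replicate 2, which were also the libraries with the highest share of the list in their group. With that share as a covariate the median of the list was 0.58 and without cocaine replicate 5 it was 1.38. Its part in the result was not tested beyond that covariate.

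**Figure D3:**
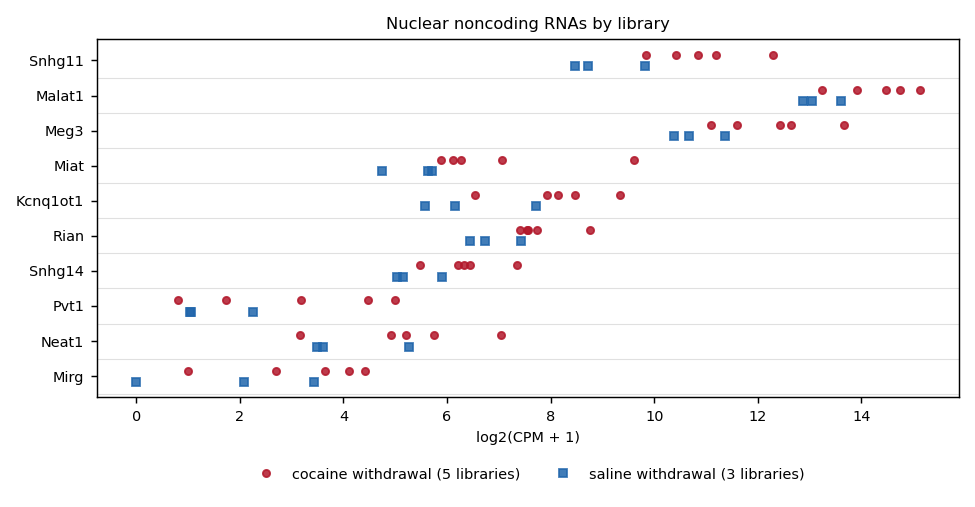
The horizontal axis is log2(CPM + 1), and each row is 1 nuclear noncoding RNA, in order of p, with the 5 cocaine withdrawal libraries as circles above the 3 saline withdrawal libraries as squares. Circles lie mostly right of squares, with no overlap in Snhg11 and Miat.

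Gene classes were looked at after the values were seen, and the long noncoding class holds at least Malat1, Meg3 and Miat of the list above, so the 2 results are not separate. Snhg11, also of that list, is annotated as protein coding and counts in that class. Of 257 tested genes that GENCODE M21 annotates as long noncoding, 174 were higher (67.7%, median 0.58), and 34 (13.2%) were higher at an unadjusted p under 0.05. Of 982 tested symbols that this annotation does not hold, many of them predicted genes or cDNA accessions, 658 were higher (67.0%, median 0.46). Of 10785 protein-coding genes, 5546 were higher (51.4%, median 0.03), and 342 (3.17%) were higher at an unadjusted p under 0.05. Long noncoding RNAs held 3.58% ± 1.36 of gene counts (SD, n = 5) in cocaine and 1.74% ± 0.498 (SD, n = 3) in saline libraries, and protein-coding genes held 87.4% ± 2.14 (SD, n = 5) and 90.2% ± 0.913 (SD, n = 3).

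Genes of protein synthesis, protein breakdown and sterol synthesis had medians below 0. In 77 tested cytosolic ribosomal protein genes 12 were higher and 65 lower, with a median of -0.39, while 46.9% of all genes were lower. Of these, 4 were below all saline libraries in every cocaine library, against 1.85% of all genes. Rpl18, a protein of the large subunit, had 38.5, 39.5, 47.5, 44.2 and 43.7 CPM in the cocaine libraries, against 97.6, 79.5 and 90.5 CPM in the saline libraries. Its groups were far apart for their spread, at 42.7 CPM ± 3.69 (SD, n = 5) in cocaine and 89.2 ± 9.09 CPM (SD, n = 3) in saline libraries (log2 fold change -1.06, SE 0.39, adjusted p = 0.856). Rpl32, of the same subunit, had 35.5, 22.7, 45.0, 37.4 and 49.1 CPM in the cocaine libraries, against 76.4, 68.7 and 51.5 CPM in the saline libraries (log2 fold change -0.79, SE 0.46, adjusted p = 0.926). Ribosomal protein genes have many near-identical pseudogenes, and Rpl18 and Rpl32 each overlap another tested gene, so their counts are uncertain. The summed level of the list with TMM factors did overlap, from 3371 to 6829 CPM in cocaine and from 5851 to 6382 CPM in saline libraries, with cocaine replicates 3 and 5 in or above the saline range. As a plain share of gene counts, without TMM factors, the list held 0.360 to 0.589% in cocaine and 0.598 to 0.645% in saline libraries. Those shares did not overlap, by a small margin, so the overlap depends on the scaling. With the share of records in no feature as a covariate the median was -0.09.

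Among 51 nuclear genes of oxidative phosphorylation 11 were higher and 40 lower (median -0.18), a sign that turned with the no-feature covariate (0.15) and with the mean log2 CPM of non-neuronal markers as a covariate (0.06). Of 30 proteasome genes 8 were higher and 22 lower (median -0.20), turning with the no-feature covariate (0.07) and without saline replicate 1 (0.07). Psma5, an alpha subunit of the proteasome core, had 15.4, 16.2, 12.4, 10.2 and 15.6 CPM in the cocaine libraries, against 62.8, 37.3 and 33.7 CPM in the saline libraries, the groups lying apart (log2 fold change -1.68, SE 0.59, adjusted p = 0.856). Psma7, another alpha subunit, had 46.8, 44.8, 19.3, 26.8 and 40.6 CPM in the cocaine libraries, against 117, 37.3 and 96.7 CPM in the saline libraries, and saline replicate 2 fell within the cocaine range (log2 fold change -1.23, SE 0.49, adjusted p = 0.866). The summed level of the proteasome list ran from 1247 to 1498 CPM in cocaine and from 963 to 1968 CPM in saline libraries, with saline replicate 2 the lowest of all 8.

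Of 16 tested genes of cholesterol synthesis, 3 were higher and 13 lower, with a median of -0.48, and 2 had an unadjusted p under 0.05, both lower, against 1.33% of all genes in that direction. Over all 18 genes of the list, which include the untested Idi1 and Mvk, the summed level was 350.2, 440.1, 402, 470.3 and 438 CPM in the cocaine libraries. In the saline libraries it was 581, 637 and 648 CPM, with no overlap. Over 18 alternatives the median stayed below 0 and ran from -0.67 to -0.29. Cyp51, the lanosterol demethylase on chromosome 5 (4081145 to 4104746, minus strand), had 44.5, 21.4, 7.42, 19.3 and 15.6 CPM in the cocaine libraries, against 40.2, 47.1 and 75.5 CPM in the saline libraries; only cocaine replicate 1 reached the saline range (log2 fold change -1.32, SE 0.60, adjusted p = 0.905). Lss, the lanosterol synthase that acts just before it, had 25.4, 33.3, 16.3, 18.5 and 3.12 CPM in the cocaine libraries, against 29.2, 103 and 29.9 CPM in the saline libraries, with the saline mean set by 1 library (log2 fold change -1.46, SE 0.68, adjusted p = 0.905). Cyp51 overlaps another tested gene. Neither gene passed in any of its 18 alternatives.

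In the fatty acid list 11 of 15 tested elongase and desaturase genes were higher and 4 lower (median 0.18). Elovl2, which lengthens polyunsaturated fatty acids, lies on chromosome 13 (41182381 to 41220405, minus strand) and had 31.1, 12.1, 15.8, 11.3 and 35.1 CPM in the cocaine libraries, against 1.45, 0 and 4.17 CPM in the saline libraries. Every cocaine library was above every saline library, from counts of 93, 39, 32, 30 and 45 in cocaine and 5, 0 and 12 in saline libraries (log2 fold change 3.41, SE 1.10, adjusted p = 0.856). DESeq2 gave an adjusted p of 0.0445 for Elovl2, and over the 18 alternatives its adjusted p ran up to 1. Fads2, the delta-6 desaturase of the same pathway, had 7.36, 32.0, 18.8, 17 and 3.9 CPM in the cocaine libraries, against 0.869, 5.41 and 3.13 CPM in the saline libraries, with cocaine replicate 5 in the saline range (log2 fold change 2.35, SE 1.06, adjusted p = 0.905). Fads3, its neighbour and relative, had 14.7, 16.8, 0, 1.13 and 30.4 CPM in the cocaine libraries, against 0.869, 0.541 and 0 CPM in the saline libraries, which is no count at all in 1 library of each group (log2 fold change 4.58, SE 1.69, adjusted p = 0.856).

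Among single genes whose log2 CPM averaged 2 or more, leaving out symbols that start with Gm, LOC, AI, AW, BC or AA and digits or end in Rik, the 12 with the smallest p in each direction did not pass, with adjusted p of 0.844 to 0.856. All 12 higher ones and 9 of 12 lower ones had groups that did not overlap, against 2.15% (higher) and 1.85% (lower) of all genes. They were picked by p in these same libraries, which favours groups that lie apart, so this count is no support for them. Of the higher ones, 2 carry only cDNA-accession symbols and are not described. Zfp182, a zinc finger transcription factor gene on chromosome X (21028939 to 21062316, minus strand), had the smallest p and 90.6, 78.9, 23.2, 49.1 and 250.4 CPM in the cocaine libraries, against 8.11, 8.66 and 5.91 CPM in the saline libraries. It averaged 98.5 CPM ± 88.9 (SD, n = 5) in cocaine and 7.56 ± 1.45 CPM (SD, n = 3) in saline libraries (log2 fold change 3.69, SE 0.72, adjusted p = 0.844). Without cocaine replicate 5, its highest library, the log2 fold change was 2.97. Zfp182 passed with DESeq2 (adjusted p = 5.95e-05) and without a filter on low counts (adjusted p = 0.00137), and its adjusted p ran up to 1 in the other alternatives.

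Scn9a, the voltage-gated sodium channel Nav1.7 on chromosome 2 (66480080 to 66634962, minus strand), had 65.9, 27.7, 144, 40.4 and 42.1 CPM in the cocaine libraries, against 7.24, 12.4 and 3.13 CPM in the saline libraries (log2 fold change 3.09, SE 0.72, adjusted p = 0.844). Cocaine replicate 3 was highest, and the lowest cocaine library was more than the highest saline library. Unc13b, which encodes the vesicle-priming protein Munc13-2 and lies on chromosome 4 (43058953 to 43264871, plus strand), had 132, 62.5, 38.6, 102 and 133 CPM in the cocaine libraries, against 22.6, 36.3 and 11.1 CPM in the saline libraries (log2 fold change 2.01, SE 0.55, adjusted p = 0.844). Rreb1, a zinc finger protein that binds Ras-responsive elements, on chromosome 13 (37778400 to 37952005, plus strand), had 118, 168, 195, 83.9 and 119 CPM in the cocaine libraries, against 40.2, 67.6 and 28.9 CPM in the saline libraries (log2 fold change 1.59, SE 0.43, adjusted p = 0.844). In all 3 genes each cocaine library was above each saline library, which DESeq2 called (adjusted p = 0.00375 for Scn9a, 0.0431 for Unc13b and 0.0445 for Rreb1) and the other alternatives did not, with adjusted p of up to 1.

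Timp4, an inhibitor of matrix metalloproteinases on chromosome 6 (115241892 to 115252205, minus strand), had 16.7, 10.9, 11.9, 13.6 and 71.0 CPM in the cocaine libraries, against 0.869, 0 and 2.09 CPM in the saline libraries. It lies inside the span of the synaptic gene Syn2, and reads of overlapping genes cannot be told apart where the strand setting is not given (log2 fold change 4.51, SE 1.18, adjusted p = 0.844). Without cocaine replicate 5 its log2 fold change was 3.60. Jrk had 20.1, 62.5, 6.43, 12.5 and 184 CPM in the cocaine libraries, against 6.08, 3.25 and 1.39 CPM in the saline libraries, a range of cocaine levels that replicate 5 again topped (log2 fold change 3.95, SE 1.06, adjusted p = 0.844), and Anks3 had 22.4, 37.6, 8.41, 11.3 and 61.6 CPM in the cocaine libraries, against 4.05, 1.62 and 1.39 CPM in the saline libraries (log2 fold change 3.53, SE 0.97, adjusted p = 0.844). Without cocaine replicate 5 the log2 fold change was 2.76 for Jrk and 3.0 for Anks3. Iigp1, an interferon-induced GTPase, had 17, 21, 15, 45 and 4 counts in the cocaine libraries, against 0 counts in all 3 saline libraries. Its mean of 7.95 CPM in cocaine libraries was at least 21.7-fold higher than the level that 3 counts over the saline group allow, 0.367 CPM. The transcribed pseudogene Tmem181b-ps on chromosome 17 (6438524 to 6467022, minus strand) had 179, 100.4, 136, 66.9 and 72.6 CPM in the cocaine libraries, against 24.9, 29.2 and 20.5 CPM in the saline libraries (log2 fold change 2.16, SE 0.47, adjusted p = 0.844). It has a near-identical parent gene, so its counts are uncertain.

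In the other direction, Sec14l1, which encodes a lipid-binding protein of the Sec14 family and lies on chromosome 11 (117115168 to 117159268, plus strand), had 159, 162, 200.3, 198 and 103 CPM in the cocaine libraries, against 394, 377 and 380.3 CPM in the saline libraries. The saline libraries agreed closely, at 383 ± 8.91 CPM (SD, n = 3), and the cocaine libraries averaged 164 ± 39.5 CPM (SD, n = 5), so that the difference was several times the spread (log2 fold change -1.22, SE 0.28, adjusted p = 0.844). Tbl2, a WD-repeat protein gene on chromosome 5 (135149657 to 135165760, plus strand), had 13.4, 16.2, 27.2, 15.5 and 9.36 CPM in the cocaine libraries, against 47.5, 126 and 52.2 CPM in the saline libraries (log2 fold change -2.20, SE 0.55, adjusted p = 0.844). These 2 were the only lower genes that DESeq2 called, each with an adjusted p of 0.0402, and over their alternatives the adjusted p ran up to 1. Cd99l2, an adhesion protein, had 31.4, 21.8, 71.2, 42.7 and 20.3 CPM in the cocaine libraries, against 92.9, 109 and 154 CPM in the saline libraries (log2 fold change -1.66, SE 0.46, adjusted p = 0.844). In all 3 genes each cocaine library was below each saline library.

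The other lower lead genes include members of calcium signalling, JNK signalling and translation. Calm3, 1 of the genes for calmodulin, the calcium sensor, had 297, 331, 535, 385 and 312 CPM in the cocaine libraries, against 665, 525 and 711 CPM in the saline libraries, overlapping only through cocaine replicate 3 and saline replicate 2 (log2 fold change -0.77, SE 0.26, adjusted p = 0.856). Mapk8ip3, the JNK scaffold and motor adaptor JIP3, had 219, 261, 224, 258 and 143 CPM in the cocaine libraries, against 306, 430.2 and 495 CPM in the saline libraries (log2 fold change -0.89, SE 0.28, adjusted p = 0.856). Eif4h, a translation initiation factor that assists the helicase Eif4a, had 87.6, 83.6, 103, 83.5 and 25 CPM in the cocaine libraries, against 179, 199 and 146 CPM in the saline libraries, with cocaine replicate 5 far below the rest (log2 fold change -1.18, SE 0.40, adjusted p = 0.856); without that library the log2 fold change was -0.998. The helicase gene Ddx10 had a log2 fold change of -1.40 (SE 0.47), and the endocytosis adaptor gene Reps1 one of -1.5 (SE 0.46), both with no overlap. Tatdn2 followed at -2.30 (SE 0.71) and the transporter gene Slc38a10 at -2.18 (SE 0.75), the groups overlapping only in Slc38a10. Low counts carried the 2 largest values: Zfp85os, an antisense RNA, had 0, 1, 0, 6 and 0 counts in cocaine and 26, 31 and 27 counts in saline libraries, and Sowahc had 4, 1, 1, 15 and 0 counts in cocaine and 7, 63 and 71 counts in saline libraries. Without a known strand setting, the reads of Zfp85os cannot be told apart from those of its sense partner.

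Activity-regulated genes gave no common direction. Of 21 tested immediate early genes 7 were higher and 14 lower (median -0.12), and 0 had an unadjusted p under 0.05, against 5.49% of all genes. Fos was too low to test, with 3 counts over the 5 cocaine libraries and 13 counts over the 3 saline libraries. Jund, the AP-1 member that is present at rest, had 8.36, 8.08, 21.3, 29.1 and 4.68 CPM in the cocaine libraries, against 25.5, 28.1 and 64.4 CPM in the saline libraries (log2 fold change -1.45, SE 0.71, adjusted p = 0.911), and the orphan nuclear receptor gene Nr4a1 had 26.4, 9.32, 1.48, 16.2 and 12.5 CPM in the cocaine libraries, against 13.3, 48.7 and 44.9 CPM in the saline libraries (log2 fold change -1.42, SE 0.78, adjusted p = 0.926). In both genes the cocaine libraries were mostly low but overlapped the saline range. Homer1, a scaffold that links metabotropic glutamate receptors to calcium stores, had 215, 209, 365, 382 and 211 CPM in the cocaine libraries, against 208, 207 and 170.5 CPM in the saline libraries, with no overlap (log2 fold change 0.50, SE 0.31, adjusted p = 0.934).

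Synaptic receptor and channel lists had medians at or below 0.05, that of all genes. Postsynaptic scaffold genes counted 5 higher and 12 lower (median -0.19), and metabotropic and kainate glutamate receptors 3 higher and 8 lower (median -0.19), medians that were 0.05 and 0.03 with the no-feature covariate. Among 14 AMPA and NMDA receptor genes 5 were higher and 9 lower (median -0.12), among 20 genes of the GABA system 9 were higher and 11 lower (median -0.08), and among 25 synaptic vesicle genes 12 were higher and 13 lower (median -0.04). Potassium channels counted 10 higher and 17 lower of 27 (median -0.14), and sodium and calcium channels 12 of each among 24 (median 0.00). Within these lists Cacna1a, the P/Q-type calcium channel of nerve terminals, had 173, 166, 99.4, 121 and 215 CPM in the cocaine libraries, against 57.6, 93.6 and 97.4 CPM in the saline libraries, without overlap (log2 fold change 0.90, SE 0.36, adjusted p = 0.874). Rims1, an active zone scaffold, had 30.8, 85.5, 52.9, 54.8 and 129.5 CPM in the cocaine libraries, against 32.7, 17.3 and 36.2 CPM in the saline libraries (log2 fold change 1.29, SE 0.54, adjusted p = 0.905). Homer2, a scaffold gene related to Homer1, had 96.7, 7.15, 18.3, 47.6 and 126 CPM in the cocaine libraries, against 10.7, 8.66 and 18.1 CPM in the saline libraries, a spread that covers the saline range (log2 fold change 2.23, SE 0.80, adjusted p = 0.856). Syt1, the calcium sensor of vesicle release, had 503, 697, 747, 835 and 738 CPM in the cocaine libraries, against 938, 960.4 and 971 CPM in the saline libraries, and no cocaine library reached a saline one (log2 fold change -0.44, SE 0.23, adjusted p = 0.926).

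Of the inhibitory genes, Gabrg3, a GABA-A receptor subunit, had 99.0, 127, 127, 176 and 88.9 CPM in the cocaine libraries, against 197, 187 and 221 CPM in the saline libraries, again without overlap (log2 fold change -0.70, SE 0.31, adjusted p = 0.905). Gad2, which makes GABA at terminals, had 1356, 1342, 2147, 1733 and 1694 CPM in the cocaine libraries, against 2824, 1789 and 2312 CPM in the saline libraries, with saline replicate 2 inside the cocaine range (log2 fold change -0.48, SE 0.23, adjusted p = 0.905). Of 13 tested opioid and neuropeptide genes 6 were higher and 7 lower (median -0.22). Oprm1, the mu opioid receptor on chromosome 10 (6758506 to 7038198, plus strand), had 37.8, 35.4, 35.1, 54.8 and 32.0 CPM in the cocaine libraries, against 85.4, 74.1 and 74.1 CPM in the saline libraries. The 5 cocaine libraries lay at 39.0 CPM ± 9.04 (SD, n = 5), below all saline libraries at 77.9 ± 6.53 CPM (SD, n = 3), and Oprm1 overlaps another tested gene (log2 fold change -0.99, SE 0.42, adjusted p = 0.905). Cck, the cholecystokinin precursor of cortical and interneuron terminals, ran from 1.55 to 94.4 CPM in cocaine and from 0.541 to 13.2 CPM in saline libraries (log2 fold change 2.41, SE 1.13, adjusted p = 0.905), and its log2 fold change was 1.39 without cocaine replicate 5. Among 9 endocannabinoid genes 6 were higher and 3 lower (median 0.49, or 0.15 without cocaine replicate 5); Cnr1, the CB1 receptor, had a log2 fold change of 1.16 (SE 0.58) and Mgll, which breaks down 2-arachidonoylglycerol, one of -0.87 (SE 0.40).

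Of 27 chromatin regulator genes 15 were higher and 12 lower (median 0.06), and the 2 with an unadjusted p under 0.05, Hdac5 and Arid1b, were lower. Over all genes 5.49% had such a p in either direction and 1.33% were lower with it. Hdac5, a class IIa histone deacetylase linked to cocaine reward in rodents, had 50.8, 157, 135, 142 and 13.3 CPM in the cocaine libraries, against 165, 633 and 133 CPM in the saline libraries; its saline mean rests on replicate 2, and the groups overlapped (log2 fold change -1.63, SE 0.63, adjusted p = 0.866). Arid1b, a subunit of the SWI/SNF remodelling complex, had 86.0, 107, 79.6, 151 and 28.9 CPM in the cocaine libraries, against 177, 213 and 189 CPM in the saline libraries, with no overlap (log2 fold change -1.09, SE 0.40, adjusted p = 0.856). In the MAP kinase, CREB and BDNF list 10 of 20 tested genes were higher and 10 lower (median 0.01), and in the actin and spine list 9 of 21 were higher and 12 lower (median -0.11).

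Markers of other cells were spread widely in both groups. Oligodendrocyte genes counted 10 higher and 2 lower of 12 tested (median 0.46), astrocyte genes 8 and 2 of 10 (median 0.45), endothelial genes 10 and 5 of 15 (median 0.27) and mural genes 5 and 6 of 11 (median -0.01). Their summed levels overlapped: the 15 oligodendrocyte genes ran from 257 to 974 CPM in cocaine and from 272 to 670.4 CPM in saline libraries, and the 16 astrocyte genes in the files from 633 to 2268 CPM in cocaine and from 481 to 1494 CPM in saline libraries. Endothelial genes summed to 635 to 2376 CPM in cocaine and 466 to 1508 CPM in saline libraries. The high library among the saline ones was replicate 2 in all 3 sums, and without it the list medians were 0.88, 1.03 and 1.19. Without cocaine replicate 5 the oligodendrocyte median was 0.01, and with the no-feature covariate it was 0.02 and the endothelial median -0.64. Without cocaine replicate 3 the astrocyte median was 0.09.

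The gene with the smallest p in each of these lists, and a second mural one, had positive fold changes and did not pass. They do not stand for their lists: 6 of the 11 mural genes were lower, down to a log2 fold change of -0.96 for Acta2. Ugt8a, an enzyme of myelin lipid synthesis, had 11, 3.73, 20.3, 12.5 and 40.6 CPM in the cocaine libraries, against 0.869, 2.16 and 5.22 CPM in the saline libraries (log2 fold change 2.65, SE 1.08, adjusted p = 0.874). Aldoc, the glycolytic aldolase of astrocytes, had 16.7, 32.3, 29.2, 20.8 and 15.6 CPM in the cocaine libraries, against 6.95, 6.49 and 8.70 CPM in the saline libraries, without overlap (log2 fold change 1.63, SE 0.76, adjusted p = 0.905). Notch3, the Notch receptor of mural cells, had 125, 74.6, 185, 61.2 and 55.4 CPM in the cocaine libraries, against 9.56, 45.5 and 29.9 CPM in the saline libraries, without overlap (log2 fold change 1.84, SE 0.57, adjusted p = 0.856). Kcnj8, a potassium channel gene of pericytes, had 16.4, 1.55, 0.989, 23.4 and 17.2 CPM in the cocaine libraries, against 0, 1.08 and 1.39 CPM in the saline libraries (log2 fold change 3.82, SE 1.5, adjusted p = 0.866), and Esam, an endothelial adhesion gene, 13.7, 45.4, 2.47, 17.4 and 2.34 CPM in the cocaine libraries, against 2.32, 4.33 and 0.348 CPM in the saline libraries (log2 fold change 2.82, SE 1.24, adjusted p = 0.905). In these last 2 genes the cocaine levels spanned from within the saline range to well above it. Ifi27, an interferon-induced gene, had 15.4, 7.77, 7.91, 10.2 and 8.58 CPM in the cocaine libraries. In the saline libraries it had 1.74, 0 and 0.348 CPM, without overlap (log2 fold change 3.66, SE 1.32, adjusted p = 0.856). The 15 tested interferon and MHC genes counted 10 higher and 5 lower (median 0.42, turning to -1.49 with the no-feature covariate). Ifi27 does not stand for that list. Its lower genes include Tap1 (log2 fold change -3.62, SE 1.52, adjusted p = 0.905), Psmb9 (-2.42, SE 1.37) and Ifitm3 (-1.996, SE 0.983). Tap1, Psmb9 and Ifitm3 were each highest in saline replicate 2, at 84.9, 28.7 and 94.1 CPM.

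Values of the other lists were as follows. Precursors of oligodendrocytes counted 4 higher and 3 lower of 7 tested genes, with a median of 1.28 that was 0.27 without cocaine replicate 5. Interneuron lists rest on few tested genes, with 4 higher and 2 lower GABA interneuron genes (median 0.43) and 3 higher and 5 lower cholinergic ones (median -0.26, or -0.03 without cocaine replicate 5 and 0.30 with the replicate block). Cortical glutamatergic genes counted 2 of each (median 0.43, or 0.22 without cocaine replicate 5) and microglial genes 2 higher and 1 lower (median 0.05). Heat shock and chaperone genes counted 4 higher and 12 lower (median -0.27), unfolded protein response genes 7 and 9 (median -0.06), and glucocorticoid and clock genes 9 and 12 (median -0.09). The ependymal and red blood cell lists had 1 tested gene each, with log2 fold changes of -1.19 and 1.42.

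The same contrast exists in library set 1, with 3 cocaine withdrawal and 3 saline withdrawal libraries that the choice above did not use. A fit of all 14 withdrawal libraries asked whether the cocaine effect differed between the sets. The labels do not say whether the sets share animals, and if they do, the 14 libraries are not all independent and the p-values of this fit and the likeness of the sets do not hold as from separate mice. Of 13609 genes, 0 (0%) passed by edgeR, with a smallest adjusted p of 0.9998 and 617 at an unadjusted p under 0.05, while DESeq2 called 14 and limma voom 0. In the same fit the set 1 effect itself had 0 genes that passed and 265 at an unadjusted p under 0.05. Across 11884 genes in both fits the log2 fold changes of the 2 sets had a Pearson r of -0.02, with the same sign in 49.4%; genes are not independent replicates, so this is a description. Of the 12 higher lead genes 1 had the same sign in set 1, and of the 12 lower ones 3.

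The smallest p for the difference belonged to Tmem181b-ps, Iigp1, Zfp182, Sec14l1 and BC071253, all with an adjusted p of 0.9998. Sec14l1 had a log2 fold change of -1.25 (SE 0.28) in set 2 and 0.54 (SE 0.32) in set 1. Zfp182 had 3.68 (SE 0.78) in set 2 and -0.72 (SE 0.72) in set 1. In set 1 it stood at 32.2, 55.8 and 14.5 CPM in cocaine libraries, against 113, 27.6 and 29.1 CPM in saline libraries. For Snhg11 the values were 2.01 (SE 0.61) in set 2 and -1.24 (SE 0.63) in set 1, and for Meg3 1.66 (SE 0.54) and -1.22 (SE 0.57). Snhg11 stood in set 1 at 173, 326 and 303 CPM in cocaine libraries, against 273, 275 and 1346 CPM in saline libraries, so its saline mean there was set by replicate 3. That library was also the highest of set 1 for Meg3, at 5390 CPM. In set 1 both fold changes were negative with overlapping groups, and the difference between the sets did not pass (adjusted p = 0.9998 for each). There the median of the nuclear noncoding list was -0.22 in set 1, with 5 higher and 5 lower. Set 1 medians were 0.09 for ribosomal protein genes, 0.31 for cholesterol synthesis and 0.00 for D2 neuron genes, against -0.41, -0.51 and -0.39 for set 2 in the same fit.

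Elovl2 had the same direction in both sets. Its log2 fold change was 3.40 (SE 1.11) in set 2 and 3.85 (SE 1.16) in set 1, and the difference was -0.45 (SE 1.43, adjusted p = 0.9998). Set 1 had 37.0, 28.7 and 7.28 CPM in cocaine libraries, against 0.493, 0.570 and 3.78 CPM in saline libraries, so that the groups did not overlap in either set. The set 1 effect of Elovl2 did not pass on its own in that fit (adjusted p = 1). This gene was chosen for description with earlier results on the same libraries known, so its values in either set are no independent evidence, and whether the sets hold different mice is not given.

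**Figure D4:**
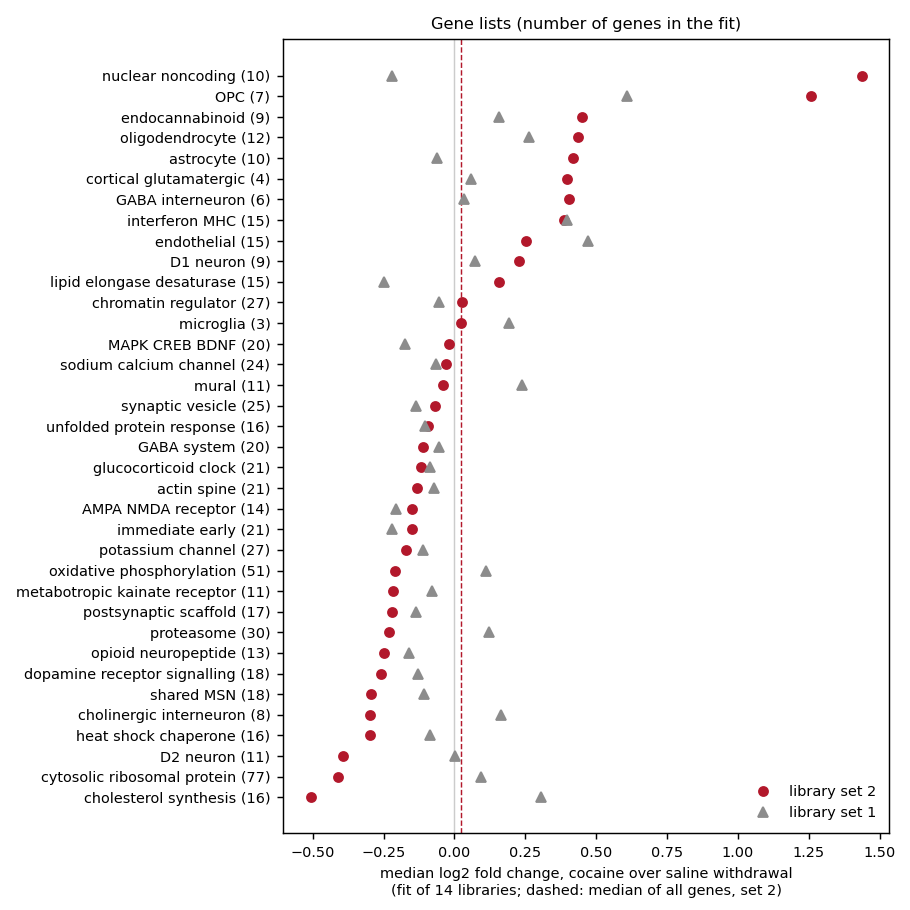
The horizontal axis is the median log2 fold change of cocaine over saline withdrawal for 36 gene lists, in the fit of 14 libraries; circles are library set 2, triangles library set 1, and the dashed line is the median of all genes in set 2 (0.02). The nuclear noncoding list has the highest circle, at 1.44, with its triangle at -0.22, and cholesterol synthesis the lowest circle, at -0.51, with its triangle at 0.31.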

How the data were processed

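The deposited files give raw read counts per gene symbol, in whole numbers, for each library. Per the submitters' processing notes, the authors' tools were STAR 2.0.0e and HTSeq, with mm10 as the genome build. No source used here gives the strand setting or gene annotation, so overlapping, antisense and near-identical genes cannot be told apart. The summary rows of HTSeq and the row called unknown, with at most 1 count, entered no library size or test; records in no feature, with several alignments or in ambiguous positions were used only as shares. Depth was 1.54 to 3.42 M counts in genes per library (M for 1e6). A Wilson 95% interval of any printed share of counts reaches at most 0.0581 percentage points either way, and intervals and the limit of 3 counts cover counting error only.

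The titles give each library's group and replicate number. The 2 library sets follow runs of library numbers; replicate numbers repeat between them. In pairs of 1 group, Pearson r of log2 CPM (prior count 2) was 0.694 to 0.869 and chi-square per degree of freedom at least 19.0 over 13 pairs, so no 2 libraries agreed within sampling noise. The main test was edgeR 4.0.16 (R 4.3.3): quasi-likelihood with robust dispersions, TMM, a low-count filter (filterByExpr, minimum 10) and a Benjamini-Hochberg threshold of 0.05, on the 8 libraries with group as the only term. The difference between sets was fitted over 14 withdrawal libraries and genes listed in both sets. SE is the log2 fold change over the square root of F. The script was tested on simulated data. Gene positions and classes come from GENCODE M21 on the same build; coordinates are counted from 1.

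Named genes are the 12 with the smallest p per direction (mean log2 CPM of at least 2; symbols starting with Gm, LOC, AI, AW, BC or AA and digits or ending in Rik left out, those starting with AK kept), which did not pass, up to 4 per list by smallest p, a fixed set of markers, and 5 for the set difference; only part is printed. The 38 lists, the members and these rules were chosen with earlier results of these data known. Gene classes and the leave-one-out of library values were added after seeing the data. Alternatives were median-of-ratios factors, no filter or a filter of 1 CPM in 3 libraries, DESeq2 1.42.0, limma 3.58.1 voom, all 24 immunopurified libraries, shared genes only, 2 covariates, the replicate number as a term, and each library left out.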

Additional observations from a re-analysis of the deposited data

Results flagged for a closer look

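In the group of 5 cocaine libraries, 84 values were checked for a library that stands far from the other 4. Of these, 10 stood out, all of them levels of single genes. The limit used marks about 1 in 20 of such groups by chance only where values are normally distributed. Levels in CPM need not be, and many of the genes were picked by p in these same libraries. The count therefore cannot be set against that rate.

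Cocaine replicate 5 was highest for Timp4, with 71.0 CPM against 16.7 CPM in the next library, for Cck, with 94.4 CPM against 27.1 CPM, and for BC071253, with 1144 CPM against 594 CPM. It was lowest for Eif4h, with 24.96 CPM against 83.5 CPM. This library also had the lowest depth and the lowest correlation with the others, and their part in these values was not tested.

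Cocaine replicate 4 was highest for Zfp85os, with 2.27 CPM against 0.311 CPM in the next library, for Sowahc, with 5.67 CPM against 1.34 CPM, and for Oprm1, with 54.8 CPM against 37.8 CPM. The Zfp85os and Sowahc values rest on 6 and 15 counts. Cocaine replicate 1 was highest for Miat, with 775 CPM against 133 CPM. Cocaine replicate 3 was highest for Mgll, with 94.0 CPM against 54.6 CPM, and for Sv2b, a synaptic vesicle protein gene, with 528 CPM against 365 CPM.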

How the results depend on the processing

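The main count of 0 genes was also 0 with median-of-ratios factors, the stricter filter, the fit of 24 libraries, shared genes, both covariates, the replicate block and every library left out in turn (0 to 0). It was 45 with DESeq2, 2 with limma voom and 1 (Zfp182) with no filter on low counts. For the set difference, DESeq2 gave 14, no filter 40 and the replicate block 1 (Tigd5), while leaving out libraries gave 0 to 0; the cause of these differences was not tested.

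The labels do not say what libraries with the same replicate number share. Deviations from the group means correlated at 0.0037, 0.095 and 0.068 between same-numbered libraries for numbers 1 to 3. Number 1 correlated better with another number (up to 0.076), while numbers 2 and 3 correlated less with any other number (up to 0.048 and 0.027). Whether the numbers mark a pairing was not tested. With the replicate block, 668 genes had an unadjusted p under 0.05, against 663. With the no-feature share as a covariate there were 424, and without saline replicate 2 there were 943.

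Of the named genes, only 78 were put through the alternatives, and 74 of these kept their sign in all of them. Fixed markers with small fold changes, such as Mbp (0.17), Pdyn (0.19) and Ndrg2 (-0.20), were not among the 78. Penk turned to 0.30 with the no-feature covariate and 0.12 with the non-neuronal covariate, and Drd1 to -0.51 with the no-feature covariate and -0.018 without cocaine replicate 1 (range with a library left out, -0.018 to 0.99). Tac1 turned to 0.13 with the replicate block. Chat turned to 0.84 with limma voom, 0.57 with the replicate block and 1.40 without saline replicate 2 (range -1.26 to 1.40). Over all these fits, 15 of the 78 genes passed in some alternative.

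Of 36 list medians, 12 kept their sign in all alternatives; 597 values moved by less than the spread and 51 by more. With each library left out, the difference in counts in genes ran from -0.774 to 0.0309 M counts, turning to 0.0309 without saline replicate 1. That in the no-feature share ran from 6.49 to 11.3 percentage points, and without saline replicate 2 (11.3) the exact permutation p was 0.0476. Median shifts of all genes between scalings stayed within 0.1 on the log2 scale. Depth limits what can be said of genes near 1 to 2 CPM.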
